A study of Mus musculus with 2 samples.

Results

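*Hif1a* and 9 genes of glucose uptake, glycolysis and pyruvate use were followed in 2 RNA-seq libraries of mouse hematopoietic stem cells (HSCs). These were *Slc2a1*, *Hk1*, *Hk2*, *Gpi1*, *Pfkl*, *Aldoa*, *Pgk1*, *Ldha* and *Pdk1*. The members were the entries of the count files that carry these symbols, and all 10 were found among 24421 gene symbols. Their counts made up 0.446% of the WT gene counts (25700) and 0.418% of those of the library labelled Ezh2 KO (17382).

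With 1 library per group, differences could not be checked against replicates and none was given a p-value. Both groups came from C57BL/6 mice with the genotype CreERT+/-, in which a recombinase acts once tamoxifen is given. The WT group was Ezh2 +/+ and the other group Ezh2 Δ/Δ, from floxed (Ezh2 fl/fl) donors. CD45.2 marrow of each genotype had been grafted into lethally irradiated CD45.1 hosts, and the labels give the same course for both groups, 100 μl tamoxifen at 10 mg/ml on each of 5 days, so that transplantation, Cre and tamoxifen are shared by the control. The promoter of the Cre, the ages and the number of animals behind each library are not given in the sources used here. HSCs were collected from the hosts 1 month later from the lineage-negative fraction positive for Sca-1 and c-kit, keeping cells with CD150 and without CD34, CD48 or Flt3. CD45.2 is not among the listed sort markers, so residual host cells cannot be told apart from donor cells. Bulk counts also cannot tell fewer cells of one type from less RNA per cell. The *Ezh2* product is the histone methyltransferase at the core of Polycomb repressive complex 2, and the libraries were made to find genes that go up when it is lost.

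Glycolysis splits glucose into pyruvate in the cytosol. HIF-1α, the protein of *Hif1a*, is an oxygen-labile transcription factor that pairs with ARNT at hypoxia response elements and turns on glucose transporters, most glycolytic enzymes, lactate dehydrogenase A and pyruvate dehydrogenase kinase 1. HSCs reside in poorly oxygenated marrow and are known for a glycolytic metabolism. HIF-1α is controlled mainly at the level of protein stability, which RNA counts do not measure.

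The core letters of the hypoxia response element, ACGTG and GCGTG, were searched on both strands of RefSeq promoters (GRCm38.p6, 250 bases before to 50 after each start). All 10 members matched a promoter by symbol, with 15 promoters in all, and 9 members held at least 1 match. *Gpi1* held none. At least 1 of the 2 motifs was present in 11 of the 15 member promoters and in 43.8% of all 32851 promoters. ACGTG was in 8 and GCGTG in 6, against 19.6% and 32.4% of all promoters. The same *Aldoa* site lies in overlapping promoters and is counted in each. The share of all genes that hold a match was not taken, and members with several promoters have more places for one. Since CACGTG reads ACGTG on both strands it counts as 2 matches, and it occurred in 2 member promoters and 7.15% of all. These matches are letters in a window, not binding sites, and no binding was measured. The windows below are those of *Hif1a* itself, of the 4 members whose count ratio lay apart from 0 by counting error, and of *Hk2*, the only member with a ratio above 0. Each is the 30-base stretch upstream of a start with the most matches, read 5′ to 3′ on the gene's strand, with matches in capitals (CACGT and CACGC are the motifs read from the opposite strand).
Hif1a (chr12:73907720-73907749, plus strand): cacacagacaagCACGTGagcggggcagct
Slc2a1 (chr4:119108684-119108713, plus strand): CACGCctctcagagtcccgccccggACGTG
Hk1 (chr10:62340422-62340451, minus strand): ttggcactgtgccacCACGCGTGaccgcgc
Pgk1 (chrX:106186947-106186976, plus strand): aggACGTGacaaatggaagtagCACGTctc
Ldha (chr7:46845750-46845779, plus strand): agcctaCACGTGggttcccgCACGTccgct
Hk2 (chr6:82774490-82774519, minus strand): caatgagcacatcCACGTcactgtccgggg
The *Ldha* promoter held the most matches of any member promoter, 7 in 300 bases, and its window shows 3 of them between 54 and 25 bases before the start. The *Pgk1* window shows both of that promoter's matches. The *Hk1* window lies before the second of 2 annotated starts, and the promoter of the other start held 0 matches.

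Gene counts totalled 5763118 in the WT library and 4157280 in the other, and 3 counts, taken as the detection floor, correspond to 0.521 and 0.722 CPM, counts scaled to a common library total. The counts of *Ezh2* itself were 166 (WT) and 129 (labelled Ezh2 KO), giving a log2 ratio of 0.08 with a 95% counting interval of −0.27 to 0.42. The count over the whole gene was thus not lower, and it does not show whether single exons were lost. The 8 HSC markers were detected in both libraries, at a summed 3814 and 4101 CPM, with 4 above 0 and 4 below. *Slamf1*, which encodes CD150 (520 and 248 counts, −0.62), and *Fgd5* (−0.59) were past 1.5-fold lower. Of the genes the sort selects against, *Cd48* was near the floor at 2.08 and 2.65 CPM. *Cd34* (957 and 829 counts, 0.23, 0.10 to 0.37) and *Flt3* (98 and 140 counts, 0.95, 0.57 to 1.34) were detected. All 3 had log2 ratios above 0. The libraries differed in other ways. Eosinophil markers summed to 2.08 and 775 CPM, with 5 of 8 at 0 in WT, neutrophil markers to 2098 and 3918 CPM with 0 of 10 at 0, erythroid markers to 61.4 and 203 CPM with 2 of 8 at 0 in each, and early B markers to 4.86 and 40.7 CPM with 5 of 8 at 0 in WT. Immediate-early response genes summed to 13243 and 6799 CPM. *Xist* had 801 and 4 counts, and the Y-linked *Ddx3y* 0 and 275, as in female cells for WT and male cells for the other library. The part of these differences in the member values was not tested.

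The 10 members differed little between the libraries. Counts were divided by size factors and ratios are log2 of the normalised count plus 1, the library labelled Ezh2 KO over WT, with exact 95% intervals for counting error only. None of the 10 was past 2-fold in either direction. Of the 12588 genes that averaged 1 CPM or more, 4.91% were 2-fold higher and 3.90% 2-fold lower. At a 1.5-fold threshold the members' count was again 0 of 10, beside 3.15% higher and 4.08% lower of the 8083 genes that averaged 100 normalised counts or more. With shares this small, 0 of 10 is close to the background at either threshold. Every member's interval stayed within 1.5-fold, and the widest bounds were 1.31-fold lower for *Hif1a* and 1.25-fold higher for *Hk2*. How many of the 8083 genes have an interval within 1.5-fold was not counted. Ratios were below 0 for 9 of 10 members, beside 52.1% of the 8083 genes, and for 8 of 10 once trends of the ratio with GC content and exon length were taken out, since *Pfkl* then stood at 0.01. The interval lay wholly below 0 for 4 members (*Slc2a1*, *Hk1*, *Pgk1* and *Ldha*), beside 24.0% of the 8083 genes, and spanned 0 for the other 6. Intervals narrow as counts rise, and the 8083 genes were not matched to the members on counts. The median ratio was −0.15, beside −0.01 for the 8083 genes, whose quartiles were −0.21 and 0.17.

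**Figure D1:**
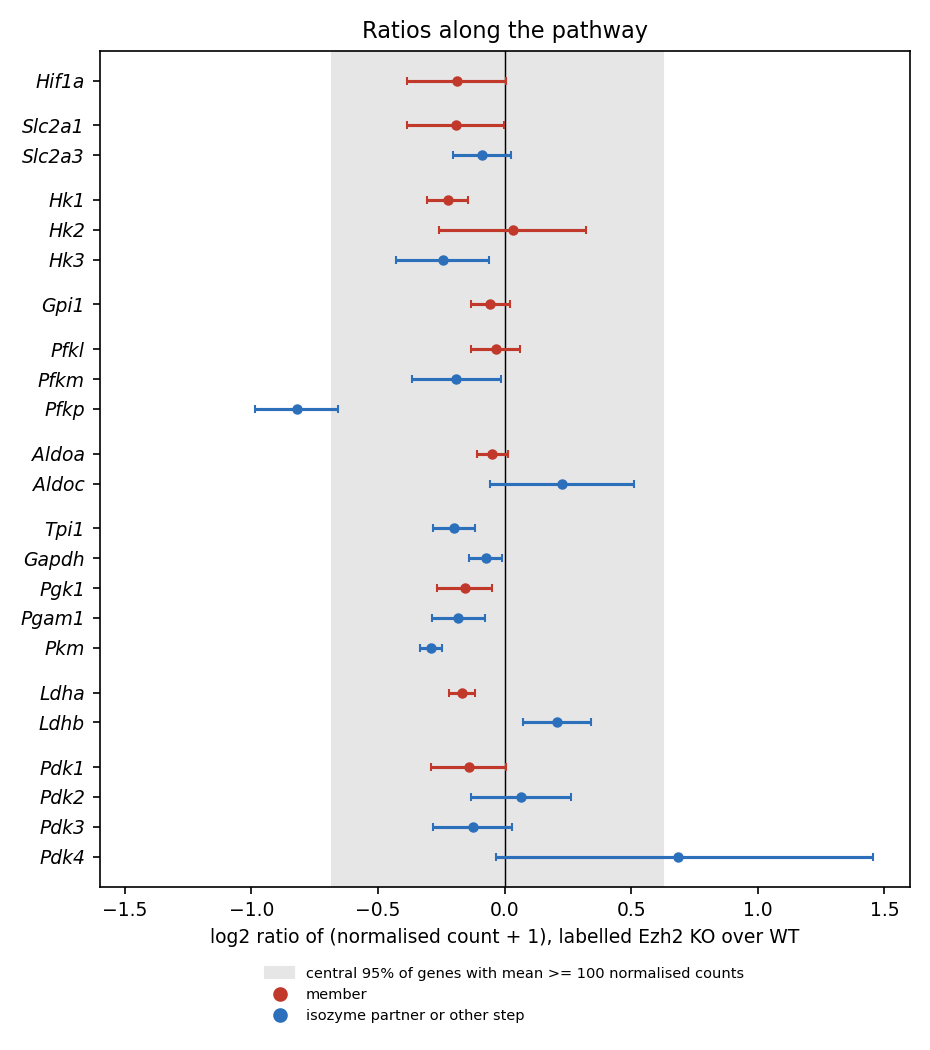
Log2 ratio of the normalised count plus 1, the library labelled Ezh2 KO over WT (x axis), for the members (red) and for isozyme partners and other steps (blue), ordered along the pathway from top to bottom. Bars are 95% counting intervals and the grey band holds the central 95% of the genes averaging 100 normalised counts or more (−0.68 to 0.63). All 10 members lie inside the band, and *Pfkp* lies outside it at −0.82.

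*Hif1a* (ENSMUSG00000021109.13, chr12:73901375-73947530, plus strand, GRCm38) was counted 545 times in WT and 352 times in its counterpart, 468 and 410.2 after normalisation. The log2 ratio was −0.19 (−0.39 to 0.01), so WT was higher by 1.14-fold, with an interval that just spans 0. Its partner *Arnt* stood on the other side of 0, with 383 and 320 counts and a log2 ratio of 0.18 (−0.04 to 0.40). *Epas1*, which encodes HIF-2α, was barely detected, with 5 and 8 counts.

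Glucose enters through the transporters GLUT1 (*Slc2a1*) and GLUT3 (*Slc2a3*). *Slc2a1* (chr4:119108711-119137983, plus strand) had 582 and 375 counts, 499 and 437 normalised, with a log2 ratio of −0.19 (−0.38 to −0.003). The interval missed 0 by a margin of 0.003, and under total-count scaling it ran from −0.35 to 0.03. *Slc2a3* had 1492 and 1033 counts and a log2 ratio of −0.09 (−0.20 to 0.03). GLUT1 and GLUT3 are both high-affinity carriers, and the log2 ratio of their summed counts was −0.12 (−0.22 to −0.02). The shares within the pair overlapped between the libraries: *Slc2a1* made up 28.1% of the counts of the pair in WT (exact binomial 26.1 to 30.05) and 26.6% in the other library (24.3 to 29.0).

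Hexokinases trap glucose by phosphorylating it. *Hk1* (chr10:62268855-62379908, minus strand) encodes the housekeeping form and had 3200 and 2017 counts, 2746 and 2350.4 normalised. Its log2 ratio of −0.22 (−0.31 to −0.14) was the lowest of the members, with 23.2% of the 8083 genes lower still. *Hk2* (chr6:82725025-82774454, minus strand), the inducible form and a known HIF target, had 231 and 174 counts, 198 and 203 normalised, for a log2 ratio of 0.03 (−0.26 to 0.32). Its interval is the widest of the 10 because it has the fewest counts, and it overlaps that of *Hk1*. *Hk3*, the form of myeloid cells, had 632 and 393 counts and a log2 ratio of −0.24 (−0.43 to −0.06). The neutrophil markers, summed higher in the library labelled Ezh2 KO, had 7 of 10 above 0, 5 of them past 2-fold, and 3 below. Of these 3, *Elane* was apart from 0 at 860 and 374 counts (−0.76, −0.94 to −0.58). The intervals of *Prtn3* (−0.07, −0.19 to 0.05) and *Ctsg* (−0.01, −0.42 to 0.39) spanned 0. Whether neutrophil content bears on *Hk3* was not tested. Shares of the hexokinase counts overlapped between the libraries for all 3 genes: *Hk1* held 78.8% in WT and 78.1% in the other library, *Hk2* 5.69% and 6.73%, and *Hk3* 15.6% and 15.2%.

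*Gpi1* (chr7:34201330-34230336, minus strand) turns glucose 6-phosphate into fructose 6-phosphate. It had 3293 and 2332 counts, 2826 and 2718 normalised, and a log2 ratio of −0.06 (−0.13 to 0.02). The libraries were not separable for this gene.

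Phosphofructokinase commits the sugar to glycolysis. *Pfkl* (chr10:77986947-78010083, minus strand), the liver-type subunit, had 2123 and 1525 counts, 1822 and 1777 normalised, and a log2 ratio of −0.04 (−0.13 to 0.06). The platelet-type *Pfkp*, in contrast, had 1047 and 436 counts and a log2 ratio of −0.82 (−0.99 to −0.66), past 1.5-fold though not 2-fold. The muscle-type *Pfkm* lay between, with 685 and 442 counts and −0.19 (−0.37 to −0.02). *Pfkl* made up 55.1% of the WT phosphofructokinase counts (53.5 to 56.7) and 63.5% of those labelled Ezh2 KO (61.5 to 65.4), and *Pfkp* 27.2% (25.8 to 28.6) and 18.1% (16.6 to 19.7). Per kilobase of exon the *Pfkl* share was 52.9% in WT and 58.1% in its counterpart, and the *Pfkp* share 12.99% and 8.27%. The intervals of the count shares were apart between the 2 libraries for both genes, and shares per kilobase were given none.

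**Figure D2:**
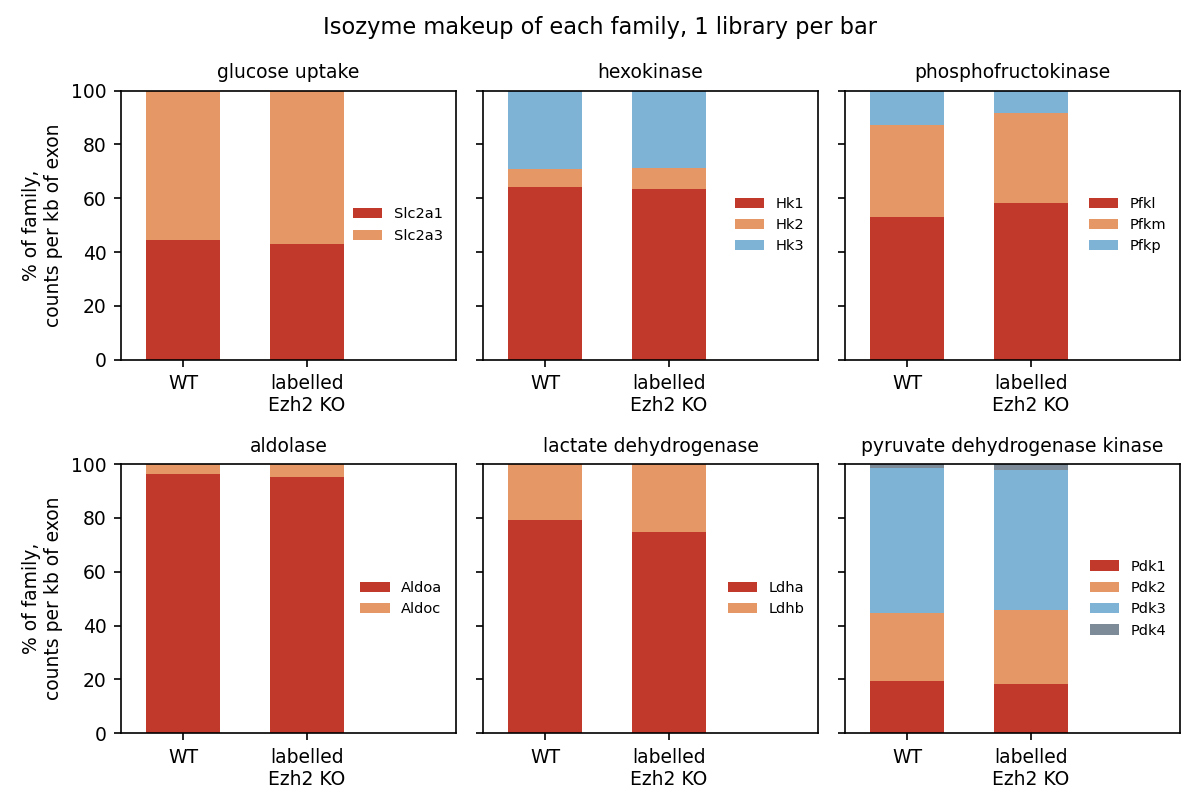
Share of each isozyme in its family (y axis, percent of CPM per kilobase of exon) for WT and for the library labelled Ezh2 KO, 1 library per bar and no error bars. The *Pfkl* share is larger (52.9% and 58.1%) and the *Ldha* share smaller (79.2% and 74.6%) in the library labelled Ezh2 KO, while *Hk2* has 6.61% and 7.83% of the hexokinase bars.

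*Aldoa* (chr7:126795234-126800751, minus strand) encodes the aldolase that cleaves fructose 1,6-bisphosphate. It had 4987 and 3551 counts, 4279.6 and 4138 normalised, and a log2 ratio of −0.05 (−0.11 to 0.01). It held 95.7% of aldolase counts in WT and 94.8% in its counterpart, with overlapping intervals. The rest was *Aldoc*, at 225 and 194 counts and a log2 ratio of 0.23 (−0.06 to 0.51). The retrogenes *Aldoart1* (2 counts in each library) and *Aldoart2* (0 in each) were at or under the floor.

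*Pgk1* (chrX:106187100-106203699, plus strand) makes the first ATP of the pathway. It had 1743 and 1150 counts, 1496 and 1340.1 normalised, with a log2 ratio of −0.16 (−0.27 to −0.05). Of all members it shares the most sequence with other places in the genome. Some 67.8% of the 61-base stretches of its longest coding transcript also occur in a gene elsewhere, genes that overlap the member's own locus left aside, while the figure was 14.1% for *Gpi1*, 9.86% for *Ldha*, 6.72% for *Aldoa* and 0% for the other 6. Reads given to more than 1 place were 10.7% of all entries in WT and 12.3% in the other library. *Pgk1* is also the only member on the X chromosome, and the libraries differed in *Xist* and Y-linked counts as given above. Whether either bears on its ratio was not tested.

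*Ldha* (chr7:46841475-46855627, plus strand) encodes the lactate dehydrogenase subunit that favours the making of lactate. It had 8076 and 5292 counts, the most of any member, 6930.4 and 6167 normalised, and a log2 ratio of −0.17 (−0.22 to −0.12). *Ldhb*, the subunit that favours lactate use, stood on the other side of 0 with 1004 and 853 counts and a log2 ratio of 0.21 (0.07 to 0.34). The *Ldha* share of lactate dehydrogenase counts was 88.9% for WT (88.3 to 89.6) and 86.1% for the library labelled Ezh2 KO (85.2 to 87.0), and 79.2% and 74.6% per kilobase of exon. The intervals, which belong to the count shares, do not overlap. The difference in share was 4.60 percentage points per kilobase.

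*Pdk1* (chr2:71873224-71903858, plus strand) encodes a kinase that shuts off pyruvate dehydrogenase and so keeps pyruvate out of the mitochondria. It had 920 and 614 counts, 789 and 715 normalised, and a log2 ratio of −0.14 (−0.29 to 0.01). *Pdk2* (492 and 379 counts, 0.06), *Pdk3* (849 and 573 counts, −0.13) and *Pdk4* (30 and 36 counts, 0.68) all had intervals that span 0. *Pdk1* made up 40.2% of the counts of these 4 kinases in WT and 38.3% in the other library, with overlapping intervals. Per kilobase *Pdk3* was the most abundant of them, at 54.0% and 51.7%.

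Levels were compared between genes as CPM per kilobase of exon. They spanned 63.0-fold in WT and 54.8-fold in the library labelled Ezh2 KO, and the order of the 10 was the same in both. *Ldha* led with 423 in WT and 385 in the other library. *Aldoa* followed with 297 and 293. *Pgk1* stood at 135 and 123, *Gpi1* at 88.6 and 86.9. *Hk1* (65.1 and 56.9) and *Pfkl* (55.2 and 55.0) differed beyond counting error in WT, but their intervals overlapped in the other library. The lower end held *Slc2a1* (28.8 and 25.7), *Pdk1* (20.5 and 19.0), *Hif1a* (16.0 and 14.4) and *Hk2* (6.72 and 7.01). All other neighbours in the order had intervals that do not overlap. Over the longest coding transcript in place of all exons, *Gpi1* (198 and 194.5) stood above *Pgk1* (166 and 152). Over only the part of that transcript with no stretch in a gene elsewhere, *Pgk1* (532 and 486) stood above *Gpi1* (235 and 231), as it did over all exons. Over the whole coding transcript, *Slc2a1* (31.0 and 27.7) and *Pdk1* (30.8 and 28.5) changed places between the libraries.

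**Figure D3:**
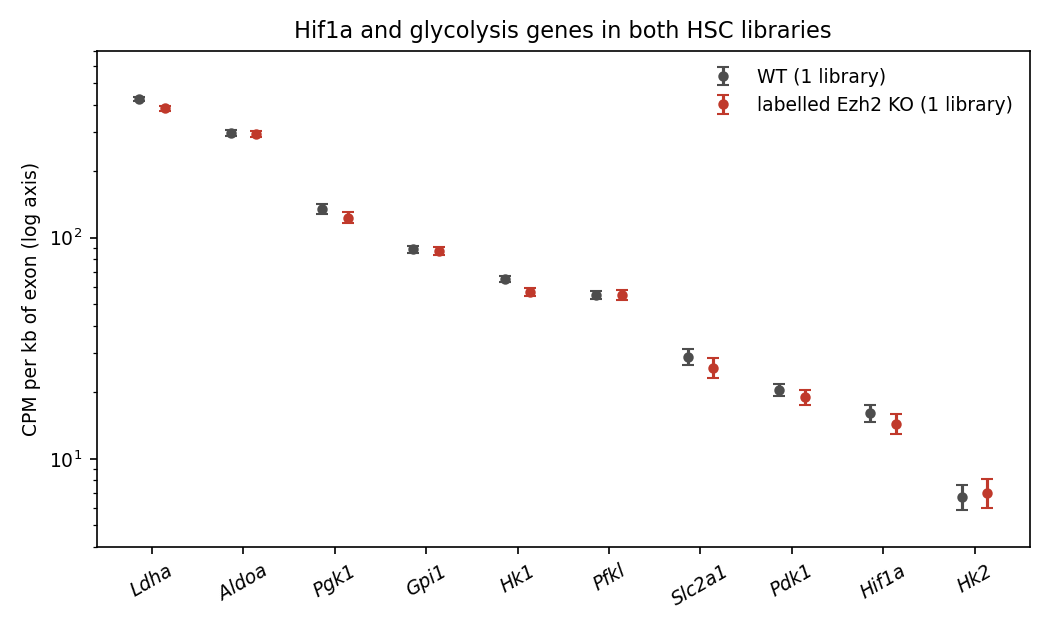
Level of each member in CPM per kilobase of exon (y axis, log scale) for WT (grey) and for the library labelled Ezh2 KO (red), ordered by the WT level. Points are single libraries and bars are exact 95% Poisson intervals, from *Ldha* at 423 and 385 to *Hk2* at 6.72 and 7.01.

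When the counts of all listed isozymes of a step were added, 13 of 13 steps had a ratio below 0. The steps ran from uptake to pyruvate dehydrogenase kinase. All 13 stayed below 0 under TMM and total-count scaling, which shift every ratio nearly alike. Aldolase was closest to 0, at −0.04, and at −0.01 under total-count scaling. Removal of length and GC trends, which brought *Pfkl* to 0.01, was not run on the sums. Of the 8083 single genes, 52.1% were below 0. The steps repeat the members in part. Glucose-6-phosphate isomerase and phosphoglycerate kinase are each a single member. The sums of uptake, hexokinase, phosphofructokinase, aldolase, lactate dehydrogenase and pyruvate dehydrogenase kinase also hold members. The intervals of 9 steps lay wholly below 0, beside 24.0% of the 8083 single genes. Those of the other 4 steps (glucose-6-phosphate isomerase, aldolase, enolase and pyruvate dehydrogenase kinase) span 0. Intervals narrow as counts rise, and the 8083 genes were not matched to the steps on counts. The lowest sums were those of pyruvate kinase at −0.29 (−0.34 to −0.25), phosphofructokinase at −0.24 (−0.31 to −0.17) and hexokinase at −0.21 (−0.28 to −0.14). Triosephosphate isomerase stood at −0.20 (−0.28 to −0.12) and phosphoglycerate mutase at −0.18 (−0.28 to −0.08). Enolase, with 112 and 72 counts, was hardly measured: *Eno1*, the common form, had 6 and 3 counts and shares 69.2% of its 61-base stretches with other genes, *Eno1b* among them. The *Gapdh* ratio of −0.08 is likewise uncertain, since 81.5% of its stretches recur in 163 other genes. *Pgam1* shares 41.1% of its stretches with genes elsewhere and *Pkm* 23.3%, so the limit holds for these steps in part.

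**Figure D4:**
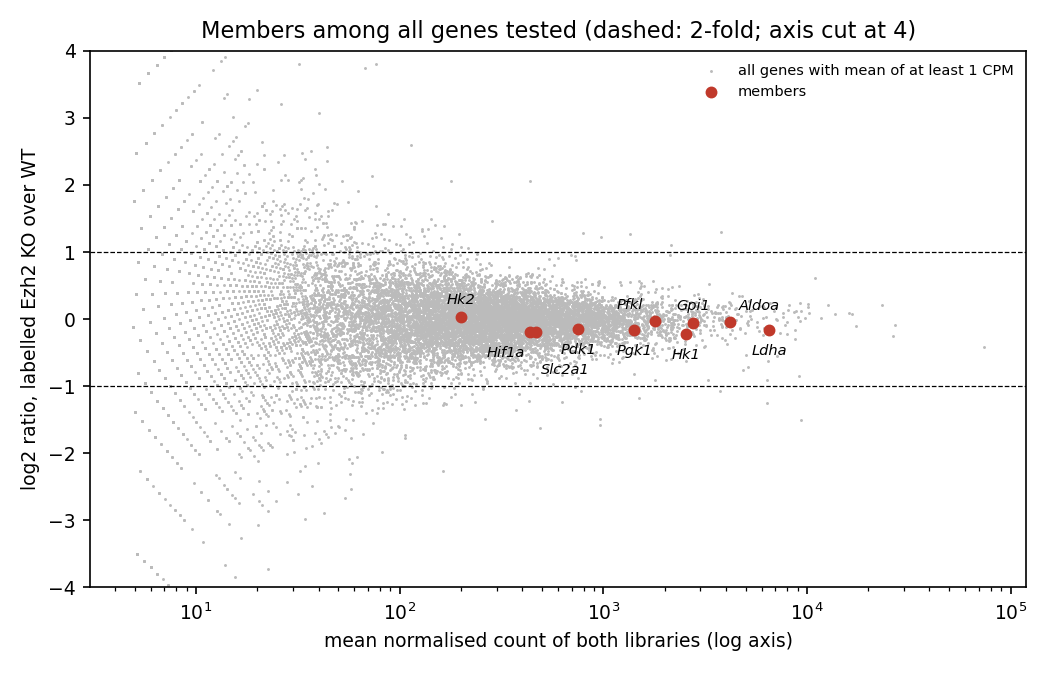
Log2 ratio, the library labelled Ezh2 KO over WT (y axis), against the mean normalised count of both libraries (x axis, log scale) for all genes averaging 1 CPM or more (grey) and for the members (red), with dashed lines at 2-fold. Of 12588 genes, 50 fall beyond the axis, and the 10 members lie between −0.22 and 0.03.

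Other genes of the pathway were read from fixed lists. Of 33 further glycolytic enzymes, carriers and phosphofructokinase regulators, 24 were tested, with a median of −0.06 beside −0.003 for all genes tested. Past 2-fold, 3 were higher and 0 lower, beside 4.91% and 3.90% of all genes tested. The 3 were *Pfkfb1* (3 and 8 counts), *Tigar* (20 and 31 counts, log2 ratio 1.03), a fructose-bisphosphatase that lowers glycolytic flux, and the neuronal enolase *Eno2* (20 and 32 counts, 1.08). All had at most 32 counts in a library. At 1.5-fold 10.5% of all genes tested were higher, and the list again had 3. The most abundant per kilobase was *Pkm*, which encodes the pyruvate kinase of most tissues, with 11249 and 6768 counts and a log2 ratio of −0.29 (−0.34 to −0.25). Past 1.5-fold lower, as 10.0% of all genes tested were, stood *Pfkp* and the muscle enolase *Eno3* (86 and 37 counts, −0.76).

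The entry of pyruvate into the mitochondria was covered by 13 genes, all tested, with 0 past 2-fold in either direction and a median of 0.06. Its most abundant gene per kilobase was *Pdk3*. The pentose phosphate pathway, a branch from glucose 6-phosphate that yields NADPH and ribose, had 0 of 7 past 2-fold and a median of 0.03. *Taldo1* was its most abundant gene per kilobase, with 1631 and 1226 counts and a log2 ratio of 0.03 (−0.08 to 0.14). Gluconeogenesis had 4 of 7 genes tested, 0 past 2-fold and a median of 0.11, with *G6pc3*, a widely expressed glucose-6-phosphatase, the most abundant at 633 and 290 counts (−0.68, −0.89 to −0.48). Of all genes tested 4.91% were 2-fold higher and 3.90% lower, so counts of 0 in lists this short are close to the background.

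Among 16 genes of HIF subunits and oxygen sensing 15 were tested, and 1 was past 2-fold higher, 0 lower, beside 4.91% and 3.90% of all genes tested, with a median of 0.01. A count of 1 in 15 is close to that share. The 1 was *Hif3a*, whose products can oppose HIF-1α, with 55 and 87 counts and a log2 ratio of 1.09 (0.60 to 1.62). Genes of HIF-1α breakdown lay on both sides of 0. The prolyl hydroxylase *Egln2* (640 and 301 counts, −0.65) and *Vhl*, which encodes the recognition subunit of the ubiquitin ligase (350 and 166 counts, −0.63), were the 2 of 15 past 1.5-fold lower, close to the 10.0% of all genes tested. The ligase partner *Tceb2*, the most abundant of the list per kilobase, stood at 877 and 784 counts and 0.28 (0.14 to 0.42).

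HIF targets outside glycolysis numbered 23, of which 18 were tested. Only *Hmox1*, which encodes the heme-degrading enzyme heme oxygenase 1, was past 2-fold (163 and 252 counts, log2 ratio 1.06, 0.78 to 1.36), and it was higher, while 0 were lower and the median was 0.12. This 1 of 18 is close to the 4.91% of all genes tested that were 2-fold higher. *Mif*, a cytokine gene and the most abundant of them per kilobase, had 2226 and 1591 counts and a log2 ratio of −0.04 (−0.14 to 0.05), with 69.8% of its stretches shared with other genes. Of 4 regulators tied to *Hif1a* or metabolism in HSCs, 3 were tested and 0 were past 2-fold. *Meis1*, a homeobox factor known to drive *Hif1a* transcription in HSCs and the most abundant of them, had 3212 and 2230 counts and a log2 ratio of −0.08 (−0.16 to −0.01). *Stk11*, which encodes the energy-sensing kinase LKB1, had 142 and 156 counts and a log2 ratio of 0.57 (0.24 to 0.92), below 1.5-fold.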

How the data were processed

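Per the labels, total RNA was amplified with a SMARTer low-input kit, made into libraries with 8 cycles and sequenced for 61 cycles. The authors deposited raw counts per gene symbol, with no normalisation. The submitters' processing notes name TopHat2 2.0.13, Bowtie2 2.1.0, StringTie, edgeR, bedtools and mm10, without roles. The counting program and its strand setting are not given in the sources used here, so overlapping and antisense genes may share counts. The 5 closing entries, for reads given to no gene (56.1% and 56.9% of all entries), were left out of gene totals and ratios.

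Counts were divided by DESeq2 1.42.0 size factors (1.17 for WT, 0.858 for the other library) in R 4.3.3. Neither edgeR nor DESeq2 can estimate a spread from 1 library per group, so no test was fitted. Ratios used a pseudocount of 1. The 95% intervals are exact: Clopper-Pearson for ratios and shares, Poisson for levels. PCR duplicates could not be removed without molecular identifiers, so intervals and the floor of 3 counts cover counting error only. Positions and exon lengths came from GENCODE M21 on GRCm38, the assembly of mm10. The interval procedure was run on simulated counts with Poisson error alone, the error it assumes. That run cannot show how the intervals hold under PCR duplication or differences between libraries. Python 3.11.15, scipy 1.17.1, pandas 2.3.3, statsmodels 0.14.6, matplotlib 3.10.9 and edgeR 4.0.16 (TMM) were also used.

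The members and lists were chosen with earlier results of these data known. Named genes are all members, *Ezh2*, isozyme partners, and from each list the genes past 2-fold and the most abundant per kilobase. Others were chosen after their values were seen: *Arnt*, *Epas1*, *Eno1*, *Eno3*, *Gapdh*, *Egln2*, *Vhl*, *Stk11*, *Elane*, *Prtn3*, *Ctsg*, *Slamf1*, *Fgd5*, *Cd34*, *Flt3*, *Cd48*, *Xist* and *Ddx3y*. Alternatives were TMM, total-count scaling, size factors without marker and early response genes, pseudocounts of 0.5 and 5, thinning, filters at 10 CPM or none, 1.5-fold, removal of length and GC trends, and other exon lengths.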

Additional observations from a re-analysis of the deposited data

How the results depend on the processing

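No member passed 2-fold under any alternative run, and none passed 1.5-fold. Over the 9 alternatives the median of the members stayed between −0.15 and −0.12 and that of all genes tested between −0.01 and 0.03. Between 8 and 9 members lay below 0, *Pfkl* being the one that crossed, from −0.05 when thinned to 0.01 with length and GC trends removed, where *Ldha* stood at −0.12. The *Pfkl* share differed by 5.19 points per kilobase and by 8.39 points in raw counts, and the *Ldha* share by −4.60 and −2.82 points. Against 618 genes 2-fold higher and 491 lower, a 1.5-fold threshold gave 1321 and 1261, a minimum of 10 CPM gave 96 and 115, and no filter gave 1404 and 1098.

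At 1.5-fold, 10.5% of all genes tested were higher and 10.0% lower. Of 24 further glycolysis genes tested, 3 were higher and 2 lower. HIF subunits and oxygen-sensing genes had 2 higher and 2 lower of 15, and HIF targets 2 higher and 1 lower of 18. Gluconeogenesis had 1 higher and 1 lower of 4, pentose phosphate 1 higher and 0 lower of 7, and pyruvate entry 2 higher and 0 lower of 13. Counts this small in lists this short are close to the background. The further glycolysis genes had 0 past 2-fold higher with a minimum of 10 CPM or a pseudocount of 5, and 6 higher and 2 lower with no filter. HIF subunits and oxygen-sensing genes had 2 higher with a pseudocount of 0.5, with thinning, and with length and GC trends removed. HIF targets had 2 higher with thinning and 1 lower with no filter. The number of genes tested under other filters is not given here, so those counts have no share beside them. Looser thresholds and filters admit more genes by construction, and the cause of the other shifts was not tested.

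With 1 library per group, leaving out a replicate was not possible. No paired analysis was possible either, and the replicate number 1 that both groups carry does not mark a pair. The smallest difference these data can show above counting error depends on depth, which is least for *Hk2*. Differences between animals, sorts and libraries cannot be told apart from the genotype. Neither can sex, in which the libraries differ by *Xist* and Y-linked counts.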
